A study of Mus musculus with 4 samples.

Results

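The interferon regulatory factors are transcription factors that share an N-terminal DNA-binding region and recognize GAAA repeats. The 8 members described here (Irf1, Irf2, Irf3, Irf4, Irf5, Irf7, Irf8 and Irf9) were taken by gene symbol and not by their values, from 54752 genes listed, of which 14330 had enough counts to be tested, and all 8 members were among those tested. They were read in RNA from 2 WT and 2 Mek1/2-tKO cultures. Mek1/2-tKO mice carry floxed Map2k1 and Map2k2, the genes of the kinases MEK1 and MEK2, and a Cre driven by Cd4, which acts from the thymus onwards, and the WT mice were littermate controls on the C57BL/6 background. The age of the mice is not given in the labels, and nothing says whether the libraries of a genotype came from separate mice, so that the p-values measure the spread between these libraries, which may be technical. Splenic cells sorted as naïve CD4+ T cells of either genotype were activated through CD3 and CD28 for 3 days with IL-6, while antibodies blocked IFN-γ, TGF-β, IL-2 and IL-4, a regime that favours T follicular helper (Tfh) cells, and viable cells were sorted again before lysis. The libraries held 18858860 and 18807774 counts in WT and 16330802 and 18931090 counts in Mek1/2-tKO.

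Family members fall into a few working groups. IRF3 and IRF7 are phosphorylated by TBK1 and IKKε after nucleic acids are sensed and switch on the type I interferon genes, IRF5 acts downstream of Toll-like receptors and MyD88, IRF9 is the DNA-binding part of ISGF3, the complex that answers type I interferon, IRF1 carries much of the response to IFN-γ, and IRF2 competes with IRF1 for the same sites. IRF4 and IRF8 bind DNA weakly alone and work with partners such as BATF and JUN proteins or PU.1 and SpiB, IRF4 being induced by the T-cell receptor and needed for effector helper T cells.

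The targeted genes and the labelled cell type were checked first. Map2k1 had 181.5 and 187.2 CPM (counts relative to library sizes that edgeR's TMM method scaled) in WT and 97.89 and 105 CPM in Mek1/2-tKO, a log2 fold change of -0.86 (SE 0.08). Map2k2 had 154.4 and 164.5 CPM in WT and 171.6 and 182.3 CPM in Mek1/2-tKO, a log2 fold change of 0.15 (SE 0.08). Counts summed over all exons do not show whether the transcripts still hold the floxed part. Cd4, the marker by which the cells are named, had 297 and 289 CPM in WT and 18.8 and 25.1 CPM in Mek1/2-tKO, a log2 fold change of -3.73 (SE 0.12). The markers of other cell types that stood higher in Mek1/2-tKO are given with the members they touch.

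A gene was called higher or lower at an adjusted p under 0.05 (edgeR's quasi-likelihood test, Benjamini-Hochberg adjustment over all genes tested) and a fold change of at least 1.5. By this rule Irf1, Irf2, Irf5, Irf7 and Irf9 were higher in Mek1/2-tKO, Irf4 was lower, and Irf3 and Irf8 were not called. The 6 called members compare with 35.8% of all genes tested, the 5 higher members with 19.3% called higher, and the 1 lower member with 16.4% called lower. The median log2 fold change was 0.79 over the 8 members and 0.02 over all genes tested. The adjusted p lay under 0.05 for all members but Irf8, a threshold passed by 55% of all genes tested. WT and Mek1/2-tKO libraries did not overlap in those 7 members, 6 of them higher and 1 lower in Mek1/2-tKO, and of all genes tested 78.2% did not overlap, 39.5% higher and 38.8% lower.

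**Figure D1:**
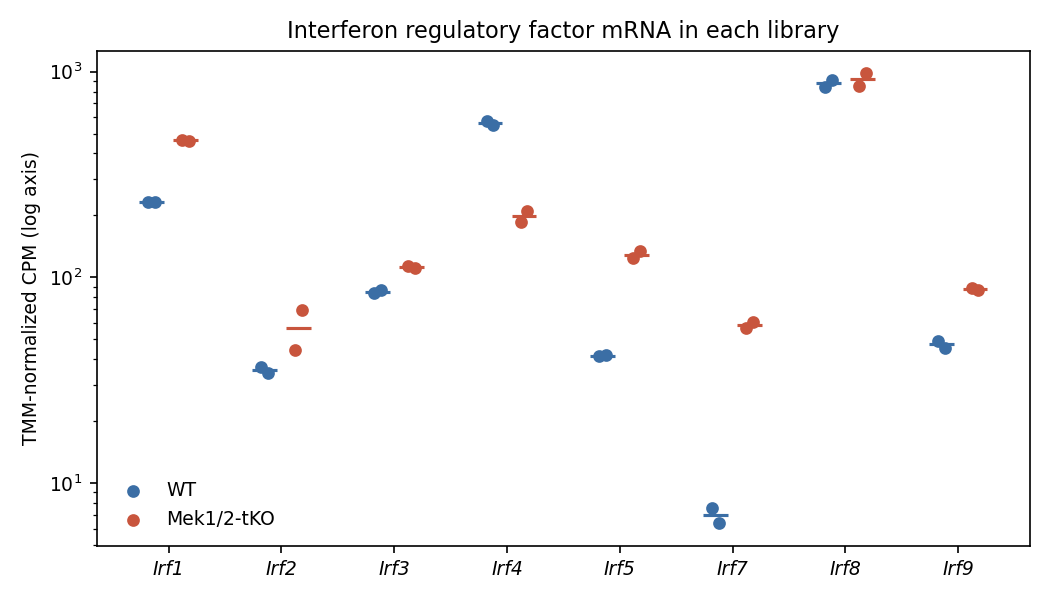
TMM-normalized CPM (log axis) of the 8 members, with 1 point per library (blue, WT; red, Mek1/2-tKO) and a bar at the mean of 2 libraries. Irf7 shows the widest gap between genotypes (7.59 and 6.37 against 56.5 and 60.5 CPM), Irf4 alone lies lower in Mek1/2-tKO, and the Irf8 libraries overlap.

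The promoters of the members that lead these results are shown because interferon acts on genes through short motifs. Irf1, Irf2 and Irf8 are given for the motif matches they hold, and Irf4 and Irf7 as the members that changed most in each direction. Each line gives the 250 bases before an annotated start (RefSeq, GRCm38.p6), 5′ to 3′ on the strand of the gene. Capitals mark matches to the core of the interferon-stimulated response element (ISRE, GAAA and again GAAA after any 2 bases) or to the gamma-activated site of the response to IFN-γ (GAS, TTCNNNGAA), searched on both strands.
Irf1 (chr11:53769764-53770013, plus strand): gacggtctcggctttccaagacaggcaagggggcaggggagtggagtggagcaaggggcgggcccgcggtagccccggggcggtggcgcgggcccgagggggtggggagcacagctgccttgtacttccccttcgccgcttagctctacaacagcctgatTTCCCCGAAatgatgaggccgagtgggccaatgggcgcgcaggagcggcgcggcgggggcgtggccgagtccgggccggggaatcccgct
Irf2 (chr8:46739495-46739744, plus strand): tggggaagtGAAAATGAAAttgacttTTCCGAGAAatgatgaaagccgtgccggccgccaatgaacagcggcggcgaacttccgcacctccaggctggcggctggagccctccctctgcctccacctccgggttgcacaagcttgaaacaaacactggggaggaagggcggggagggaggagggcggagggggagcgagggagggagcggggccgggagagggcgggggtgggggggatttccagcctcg
Irf8 (chr8:120736108-120736357, plus strand): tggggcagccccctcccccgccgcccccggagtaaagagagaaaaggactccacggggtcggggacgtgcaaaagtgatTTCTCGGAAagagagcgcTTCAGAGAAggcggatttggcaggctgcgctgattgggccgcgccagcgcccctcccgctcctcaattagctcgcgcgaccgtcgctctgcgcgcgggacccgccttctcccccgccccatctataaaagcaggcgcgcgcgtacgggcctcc
Irf4 (chr13:30748983-30749232, plus strand): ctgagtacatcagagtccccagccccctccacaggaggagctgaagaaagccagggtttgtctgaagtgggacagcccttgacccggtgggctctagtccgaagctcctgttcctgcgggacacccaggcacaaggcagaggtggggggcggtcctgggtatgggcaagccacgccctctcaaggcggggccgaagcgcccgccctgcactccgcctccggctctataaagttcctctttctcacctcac
Irf7 (chr7:141266425-141266674, minus strand): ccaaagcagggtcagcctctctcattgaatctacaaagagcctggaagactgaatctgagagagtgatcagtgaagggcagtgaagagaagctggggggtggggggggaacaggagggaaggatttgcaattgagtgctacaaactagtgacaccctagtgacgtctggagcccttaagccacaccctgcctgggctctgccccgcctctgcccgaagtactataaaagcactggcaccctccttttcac
All 8 members matched a promoter window of 300 bases (250 before and 50 after the start), 11 windows in all. Irf1 held a GAS at -90 (TTCCCCGAA), Irf2 an ISRE core at -241 (GAAAATGAAA) and a GAS at -224 (TTCCGAGAA), and Irf8 a GAS at -171 (TTCTCGGAA) and at -153 (TTCAGAGAA), counted from the annotated start to the first base of the match, and none of these matches overlapped. The windows of Irf3, Irf4, Irf5, Irf7 and Irf9 held neither string of letters, which says only that these letters are not there. A GAS was thus found in 3 of 8 members and an ISRE core in 1 of 8, while 9.55% and 3.99% of the 27025 genes with such a window held them. Of the 3 members with a GAS, Irf1 and Irf2 were called higher and Irf8 was not called.

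Irf4 (ENSMUSG00000021356.10, chr13:30749226-30766976, plus strand) was the member with a decrease. It had 577 and 549 CPM in WT and 186 and 209 CPM in Mek1/2-tKO. Both WT libraries lay far above both Mek1/2-tKO libraries, and the libraries of a genotype lay close together. The log2 fold change was -1.51 (SE 0.08, adjusted p = 4.19e-09, edgeR), a level 2.85-fold higher in WT, and it ranged from -1.60 to -1.43 with each library left out in turn. Among 9607 genes of sufficient abundance outside the family, the centred log2 CPM of Acaca (acetyl-CoA carboxylase of fatty acid synthesis), Hs3st3b1 (a heparan sulfate sulfotransferase) and Gm4849 followed Irf4 most closely over the 4 libraries, with root-mean-square differences of 0.0262, 0.0287 and 0.0287 log2 units. Acaca had 49.9 and 47.8 CPM in WT and 15.7 and 17.2 CPM in Mek1/2-tKO. A search of 9607 genes over only 4 libraries readily finds close patterns, here and for Irf8 and Irf7 below. Shared regulation was not tested.

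Irf8 (ENSMUSG00000041515.10, chr8:120736358-120756694, plus strand), the closest relative of Irf4, had 840 and 915 CPM in WT and 855 and 982 CPM in Mek1/2-tKO. The genotypes overlapped, and the second library of each genotype was the higher. The log2 fold change was 0.07 (SE 0.08, adjusted p = 0.53, edgeR) with an approximate 95% interval from -0.10 to 0.23. Its sign was not stable: scaling by library size alone gave -0.02, and leaving out Mek1/2-tKO replicate 2 gave -0.04. Without Mek1/2-tKO replicate 1 it was 0.16 with an adjusted p of 0.00717, still under the fold required. The genes whose pattern lay nearest to Irf8 were Dock10, Gm3226 and Mical1, with root-mean-square differences of 0.00879, 0.009 and 0.0093 log2 units. As Irf8 differed little between genotypes, the pattern matched is mostly the spread between libraries.

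Irf4 and Irf8 can be set against each other per length of merged exons (RPKM, from the same scaled library sizes). The ratio of Irf4 to Irf8 was 0.989 and 0.864 in the WT libraries and 0.314 and 0.306 in the Mek1/2-tKO libraries. The transcripts were thus about equally abundant per length in WT, while Irf8 exceeded Irf4 in both Mek1/2-tKO libraries. The difference of the log2 ratios was -1.58, with an exact two-sided permutation p of 0.333, the smallest that 2 libraries against 2 can give.

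The IRF4 and IRF8 partners were called in both directions. Of 15 partner genes tested, 5 were called higher and 3 lower (median log2 fold change -0.19). Over all genes tested, 19.3% were called higher and 16.4% lower, and these shares apply to every list below. Spi1, which encodes PU.1, a factor of myeloid and B cells, had 12.9 and 10.3 CPM in WT and 55.8 and 61.3 CPM in Mek1/2-tKO, a log2 fold change of 2.33 (SE 0.14). Spib, the related factor of B cells and plasmacytoid dendritic cells, rose by 2.09 (SE 0.10) on the log2 scale, and Jun, an AP-1 subunit, by 1.71 (SE 0.11). Fosl2, another AP-1 subunit, had a log2 fold change of -1.92 (SE 0.12), Nfatc2, the calcium-driven factor NFAT1, one of -1.72 (SE 0.17), and Fos one of -0.89 (SE 0.29). Junb, the most abundant of the list, was not called and had 592 and 616 CPM in WT and 476 and 481 CPM in Mek1/2-tKO, and Batf, which was not called either, had 114 and 115 CPM in WT and 107 and 95.1 CPM in Mek1/2-tKO.

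Genes tied to IRF4 in activated CD4+ T cells were called in both directions, with 6 higher and 6 lower of 19 tested (median log2 fold change -0.23). The shares over all genes tested were 19.3% and 16.4%. The median was -0.57 without WT replicate 1, -0.10 without WT replicate 2, -0.44 without either Mek1/2-tKO library, -0.45 with no filter on low counts and -0.83, with 5 higher and 7 lower, when at least 10 counts were required in every library. Ctla4, an inhibitory receptor, had 165 and 156 CPM in WT and 22.6 and 18.4 CPM in Mek1/2-tKO (log2 fold change -2.97, SE 0.11). Il21, the Tfh cytokine, had 7.95 and 8.76 CPM in WT and 1.03 and 1.81 CPM in Mek1/2-tKO (log2 fold change -2.53, SE 0.32), and Gata3, the factor of Th2 cells, changed by -2.10 (SE 0.15). Il2ra, the IL-2 receptor chain and the most abundant of this list, changed by -0.91 (SE 0.07). In the other direction, Il17a had 2.87 and 1.04 CPM in WT and 48.6 and 45.1 CPM in Mek1/2-tKO (log2 fold change 4.58, SE 0.26). Bcl6, the lineage factor of Tfh cells, rose by 1.85 (SE 0.19) and Il10 by 1.38 (SE 0.29) on the log2 scale. In the same libraries 6 of 7 γδ T-cell markers and 18 of 20 B-lineage markers were higher and 11 of 18 αβ T-cell and CD4 markers were lower, and the part of such cells in these genes was not tested. Bcl6 and Prdm1 stand also in the list of B-cell and plasma-cell genes that follows.

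Genes tied to IRF4 and IRF8 in B cells and plasma cells had 8 higher and none lower of 13 tested, with a median of 1.41. The shares over all genes tested were 19.3% and 16.4%. Jchain, the joining chain of secreted IgM and IgA, had 4.67 and 3.63 CPM in WT and 105 and 88.7 CPM in Mek1/2-tKO (log2 fold change 4.54, SE 0.15), and Cd38 rose by 2.74 (SE 0.11). Xbp1, the secretory factor and most abundant gene of this list, had 188 and 208 CPM in WT and 270 and 241 CPM in Mek1/2-tKO, under the fold required. Of these genes, Pax5, Ebf1, Blnk, Spib and Pou2af1 also stand in the list of B-lineage markers, where 18 of 20 were higher and 1, Fcer2a, was lower, so that the counts of the lists are not independent. The summed CPM of that list was 2014 and 1982 in WT and 9707 and 9629 in Mek1/2-tKO, Ighm was its most abundant gene, and no defining marker reported here (Ms4a1, Cd79a, Cd79b, Pax5) was at 0 in any library. Irf8, Spib and Spi1 are expressed by B cells as well. The part of B-lineage RNA in the levels of the family was not tested, and in bulk libraries fewer cells of a type and less RNA per cell cannot be told apart.

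**Figure D2:**
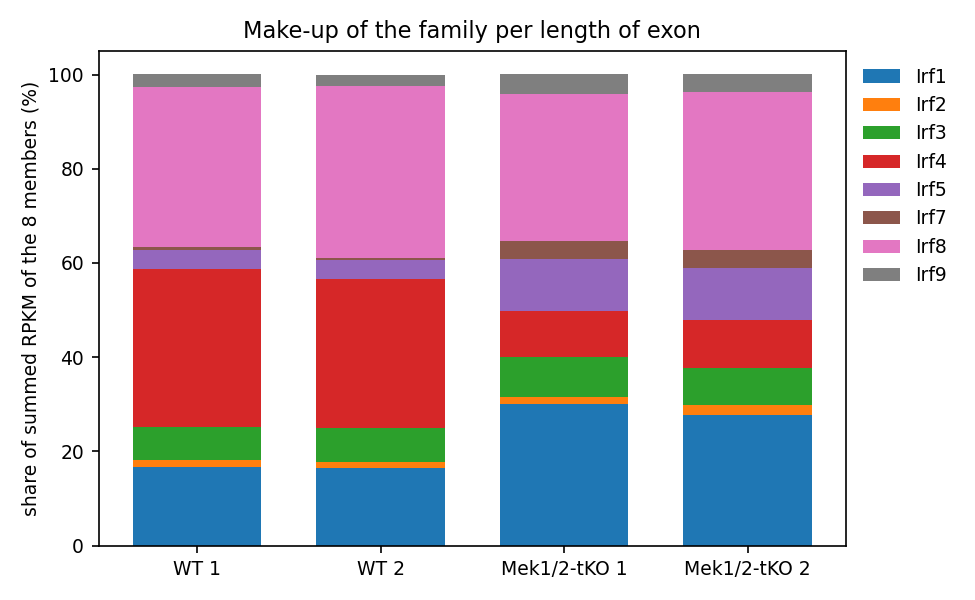
Share of each member in the summed RPKM of the 8 members, in percent, with 1 bar per library. Irf4 takes 33.6 and 31.6% in WT and 9.77 and 10.2% in Mek1/2-tKO, and Irf1 takes 16.8 and 16.5% in WT and 30.1 and 27.7% in Mek1/2-tKO.

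Per length, the family reached a summed level of 350 and 354 RPKM in WT and 389 and 417 RPKM in Mek1/2-tKO. In WT the order of levels ran from Irf8 (124 ± 7.51 RPKM, SD, n = 2) over Irf4 (115 ± 4.02), Irf1 (58.5 ± 0.175), Irf3 (24.7 ± 0.546), Irf5 (14.3 ± 0.0822), Irf9 (8.78 ± 0.475) and Irf2 (4.79 ± 0.196) to Irf7 (1.85 ± 0.227). The lowest Irf8 library (119 RPKM) lay beside the highest Irf4 library (118 RPKM), so that the order of these neighbours is not set beyond their spread, while the others were apart. In Mek1/2-tKO it ran from Irf8 (130 ± 12.8 RPKM) over Irf1 (116 ± 0.93), Irf5 (44.3 ± 2.58), Irf4 (40.3 ± 3.23), Irf3 (32.5 ± 0.422), Irf9 (16.3 ± 0.364) and Irf7 (15.5 ± 0.754) to Irf2 (7.69 ± 2.42). There Irf5 and Irf4, and Irf9 and Irf7, were neighbours that did not differ beyond their spread. The lowest Irf8 library (121 RPKM) lay close above the highest Irf1 library (117 RPKM), but the other Irf8 library lay further off (139 RPKM), so that their order is not firm. Merged exons of Irf7 formed 1 block of 3776 bases that spans the gene, introns of some transcripts included, which lowers its level per length.

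Irf7 (ENSMUSG00000025498.15, chr7:141262706-141266481, minus strand), the amplifier of the type I interferon response, had the largest change of the family. It had 7.59 and 6.37 CPM in WT (148 and 123 counts) and 56.5 and 60.5 CPM in Mek1/2-tKO (875 and 1137 counts). Every Mek1/2-tKO library lay several times above every WT library. Its level rose by 3.07 on the log2 scale (SE 0.14, adjusted p = 9.27e-10, edgeR), or 8.37-fold, and ranged from 2.94 to 3.19 with each library left out. The nearest patterns were those of Il18r1 (the IL-18 receptor), Ctsw (a cathepsin of NK and cytotoxic T cells) and Slfn5 (a Schlafen gene), with root-mean-square differences of 0.0539, 0.0863 and 0.0875 log2 units, and Ctsw had 11 and 10.4 CPM in WT and 95 and 91.5 CPM in Mek1/2-tKO. Of 13 NK-cell markers, 12 were called higher and 1 (Itga2) lower, against 19.3% and 16.4% of all genes tested. With at least 10 counts in every library 10 were higher and none lower. Their summed CPM was 156 and 155 in WT and 975 and 893 in Mek1/2-tKO, with Nkg7 the most abundant gene and neither Ncr1 nor Klrb1c at 0. Most tested markers of B-lineage, myeloid, dendritic, CD8 and γδ T cells were higher too, so this rise was not particular to NK-cell markers. The part of NK cells in Irf7 was not tested.

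Irf3 (ENSMUSG00000003184.15, chr7:44997648-45002848, plus strand), whose protein is activated by the same kinases as IRF7 but is made constitutively, had 83.8 and 86.4 CPM in WT and 113 and 111 CPM in Mek1/2-tKO. The genotypes did not overlap, yet the log2 fold change of 0.39 (SE 0.09, adjusted p = 0.00152, edgeR) stayed under the fold required. The ratio of Irf7 to Irf3 per length was 0.0826 and 0.0672 in WT and 0.456 and 0.497 in Mek1/2-tKO (difference of log2 ratios 2.68, exact permutation p = 0.333, the smallest possible).

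Irf5 (ENSMUSG00000029771.12, chr6:29526625-29541871, plus strand) had 41.4 and 41.7 CPM in WT and 124 and 134 CPM in Mek1/2-tKO, with no overlap. Irf5 rose by 1.63 on the log2 scale (SE 0.09, adjusted p = 9.43e-09, edgeR), or 3.10-fold. On the opposite strand, Tnpo3 shares 14.1% of the exon bases of Irf5, and the strand setting of the counting is not given in the sources used here. Tnpo3 itself had 2854 and 2792 counts in WT and 1294 and 1802 counts in Mek1/2-tKO, the opposite direction to Irf5. For the other members, overlaps with neighbours took at most 3.4% of exon bases.

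IRF5 is best known from myeloid, dendritic and B cells, and markers of those cells stood higher in Mek1/2-tKO. Of 20 myeloid markers listed, 10 had enough counts to be tested and 10 were called higher, but several of them passed the filter on counts through the Mek1/2-tKO libraries alone, and with at least 10 counts required in every library 4 were called higher. The summed CPM of the list was 91.1 and 87.4 in WT and 465 and 399 in Mek1/2-tKO. Ly6c2, which lymphocytes also express, was the most abundant gene in Mek1/2-tKO but not in WT. Among the defining genes, Adgre1 was at 0 in both WT libraries and at 4.26 and 4.42 CPM in Mek1/2-tKO, Lyz2 had 0.41 and 0.622 CPM in WT and 10.2 and 6.22 CPM in Mek1/2-tKO, and Csf1r and Itgam had too few counts to be tested. Dendritic markers had 7 higher and none lower of 8 tested (6 higher with at least 10 counts in every library), with sums of 260 and 246 CPM in WT and 780 and 695 CPM in Mek1/2-tKO. Ly6d, which B cells also express, was the most abundant gene in Mek1/2-tKO but not in WT. Among the defining genes, Flt3 and Zbtb46 were called higher, and Xcr1, Clec9a and Siglech had too few counts to be tested. Clec9a and Siglech were at 0 in WT. In Mek1/2-tKO Clec9a had 4 and 5 counts and Siglech 4 and 6 counts, near the floor of 3 counts. The part of such cells in Irf5 and Irf7 was not tested.

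Upstream of IRF3, IRF5 and IRF7, 8 sensing and kinase genes were higher and 3 lower of 21 tested (median log2 fold change 0.20). Over all genes tested, 19.3% were called higher and 16.4% lower. Scaling by library size alone gave 8 higher and 5 lower. With at least 10 counts required in every library 7 were higher and 3 lower, since a higher gene had passed the filter through the Mek1/2-tKO libraries alone. Unc93b1, the chaperone of endosomal Toll-like receptors, had 75.4 and 85.5 CPM in WT and 386 and 415 CPM in Mek1/2-tKO (log2 fold change 2.32, SE 0.09). It was the most abundant of the list in Mek1/2-tKO but not in WT. Tlr9, a DNA sensor prominent in B cells, rose by 2.23 (SE 0.19) and Tlr4 by 1.81 (SE 0.33). Ifih1, the RNA sensor MDA5, changed by -1.68 (SE 0.17), Ikbke, the kinase IKKε, by -1.12 (SE 0.12), and Traf6 by -0.84 (SE 0.10). Tbk1, the main IRF3 kinase, had 53 and 44 CPM in WT and 51.8 and 49.2 CPM in Mek1/2-tKO and was not called. Of 12 co-regulators of the family, 1, Ifi35, was called higher (log2 fold change 0.81, SE 0.11) and none lower, with a median of -0.04. With scaling by library size alone 1 was called lower, and a lower call appeared also without Mek1/2-tKO replicate 2. The most abundant, Fkbp4, had 615 and 605 CPM in WT and 508 and 475 CPM in Mek1/2-tKO.

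The interferon ligand genes other than Ifng had few or no counts. Of 21 interferon ligand genes, 18 had no counts in any library, Ifnb1 among them, and a count of 0 allows up to 0.154 to 0.194 CPM depending on the library. Ifna13 had 2 counts in Mek1/2-tKO replicate 2 and Ifnl3 had 2 counts in WT replicate 2. The type I interferon genes are near copies of each other, and reads that fit several places were not counted. Ifng alone was tested: it had 127 and 121 CPM in WT and 2051 and 1771 CPM in Mek1/2-tKO, a log2 fold change of 3.95 (SE 0.10, adjusted p = 1.8e-12, edgeR). IFN-γ protein was blocked by antibody in all 4 cultures.

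Irf9 (ENSMUSG00000002325.15, chr14:55603571-55610030, plus strand) had 49.1 and 45.5 CPM in WT and 89.1 and 86.3 CPM in Mek1/2-tKO. The libraries of a genotype lay close together and apart from the other genotype. It rose by 0.89 on the log2 scale (SE 0.10, adjusted p = 4.61e-06, edgeR). Its partner Stat2 had 52.8 and 66.7 CPM in WT and 80.1 and 106 CPM in Mek1/2-tKO (log2 fold change 0.64, SE 0.14), with no overlap between the genotypes.

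Of the 10 receptor, JAK and STAT genes tested, 5 were higher and 1 lower, with a median of 0.58, and 3 were higher without WT replicate 1 or with scaling by library size alone. Over all genes tested, 19.3% were called higher and 16.4% lower. Ifngr1, a chain of the IFN-γ receptor, rose by 0.84 (SE 0.10) and Il10rb, a chain shared by the IL-10 and type III interferon receptors, by 0.72 (SE 0.14). Jak2, a kinase of the IFN-γ receptor, had 295 and 289 CPM in WT and 98.8 and 101 CPM in Mek1/2-tKO (log2 fold change -1.54, SE 0.08). Jak1 was not called, with 225 and 239 CPM in WT, below Jak2, and 198 and 215 CPM in Mek1/2-tKO, where it was the most abundant of them.

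Type I interferon-stimulated genes, the targets of ISGF3 and IRF7, had 13 higher and 2 lower of 27 tested (median log2 fold change 0.95). Over all genes tested, 19.3% were called higher and 16.4% lower. The median was 0.52, with 12 higher and 2 lower, when at least 10 counts were required in every library, and 0.64 and 0.69 without Mek1/2-tKO replicate 1 and replicate 2. Ifit3 had 0.513 and 0.466 CPM in WT and 38.7 and 35.7 CPM in Mek1/2-tKO (log2 fold change 6.23, SE 0.23). Ifit3b, a near-identical neighbour of Ifit3 (reads that fit both genes were not counted, so that both levels are uncertain), changed by 5.24 (SE 0.57), and Rtp4 by 3.87 (SE 0.21). Samhd1, a nucleotide hydrolase and the most abundant of the list, had 353 CPM in each WT library and 757 and 796 CPM in Mek1/2-tKO. The 2 genes called lower were Eif2ak2 and Oas3. Eif2ak2, the kinase PKR, changed by -0.66 (SE 0.13) and Oas3 by -0.64 (SE 0.16). With a library left out 1 of these calls was lost in 3 of 4 cases, since Eif2ak2 was at -0.58 without WT replicate 1 and Oas3 at -0.52 without WT replicate 2 and at -0.51 without Mek1/2-tKO replicate 1, under the fold required. Isg15 had 25.3 and 22.3 CPM in WT and 23.7 and 18 CPM in Mek1/2-tKO and Mx1 had 6.82 and 7.51 CPM in WT and 8 and 6.97 CPM in Mek1/2-tKO. Of this list 12 genes were not called.

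Irf1 (ENSMUSG00000018899.16, chr11:53770014-53778374, plus strand), the activator induced by IFN-γ, had 233 and 232 CPM in WT and 465 and 460 CPM in Mek1/2-tKO. The libraries of each genotype were almost equal. The log2 fold change was 0.99 (SE 0.07, adjusted p = 8.62e-08, edgeR), or 1.99-fold, with 0.98 to 0.99 when each library was left out. Its promoter is the first of those shown above, with a GAS in capitals.

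Irf2 (ENSMUSG00000031627.9, chr8:46739732-46847458, plus strand), the antagonist of IRF1, had 36.5 and 34.4 CPM in WT and 44.2 and 69.5 CPM in Mek1/2-tKO. The Mek1/2-tKO libraries lay above WT but differed widely from each other. The log2 fold change was 0.69 (SE 0.16, adjusted p = 0.00302, edgeR). Without Mek1/2-tKO replicate 2 it was 0.31 (adjusted p = 0.0313), under the fold required, and without Mek1/2-tKO replicate 1 it was 0.97, so that the call rests on 1 library. The ratio of Irf1 to Irf2 per length was 11.9 and 12.6 in WT and 19.6 and 12.3 in Mek1/2-tKO, where the genotypes overlapped (difference of log2 ratios 0.34, exact permutation p = 0.667).

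**Figure D3:**
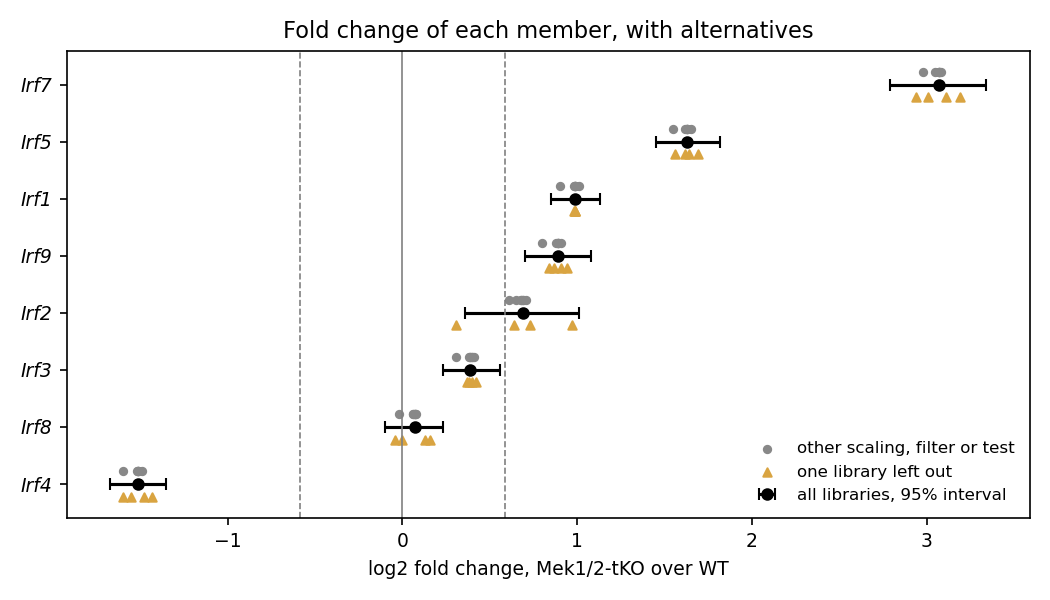
Log2 fold change of each member (Mek1/2-tKO over WT) with all libraries (black, approximate 95% interval), under other scalings, filters or tests (grey) and with 1 library left out (triangles). Dashed lines mark a fold change of 1.5 in either direction. Irf2 spans 0.31 to 0.97 when a library is left out, Irf8 lies on both sides of 0, and the other members keep their side of the dashed lines.

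The genes known as IRF1 targets in the response to IFN-γ had 15 higher and 2 lower of 30 tested, with a median of 0.65. The shares over all genes tested were 19.3% and 16.4%. Cxcl9, a chemokine for CXCR3, had 2.51 and 2.75 CPM in WT and 11.1 and 12.4 CPM in Mek1/2-tKO (log2 fold change 2.16, SE 0.24). Ciita, the master factor of MHC class II, which B cells also express without IFN-γ, rose by 1.89 (SE 0.12), and Casp1, the inflammasome protease, by 1.67 (SE 0.16). B2m, the MHC class I light chain and the most abundant of the list, had 1076 and 1052 CPM in WT and 2797 and 2319 CPM in Mek1/2-tKO. Nos2, the inducible nitric oxide synthase, changed by -2.41 (SE 0.34), from 5.79 and 8.76 CPM to 1.1 and 1.6 CPM. Ido1, the other gene called lower, changed by -1.40 (SE 0.40). Not both of these lower calls held without WT replicate 2. Tap1, the peptide transporter, had 482 and 489 CPM in WT and 457 and 503 CPM in Mek1/2-tKO, and Igtp, an IFN-γ-induced GTPase, had 397 and 399 CPM in WT and 424 and 376 CPM in Mek1/2-tKO. Neither was called, and in all 13 of the 30 genes were not.

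The ISRE core was read in both target lists. It was present in the windows of 12 of 21 type I interferon-stimulated genes and of 11 of 20 IRF1 targets that matched a promoter, against 3.99% of all genes. Of the type I interferon-stimulated genes tested, 4 of 11 with the core were higher and 2 were lower (median log2 fold change 0.38), and 6 of 9 without it were higher and none lower (median 1.14). Of the IRF1 targets, 7 of 11 with the core and 5 of 9 without it were higher and none lower, with medians of 0.66 and 0.68. These counts are a description, and the difference was not tested.

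**Figure D4:**
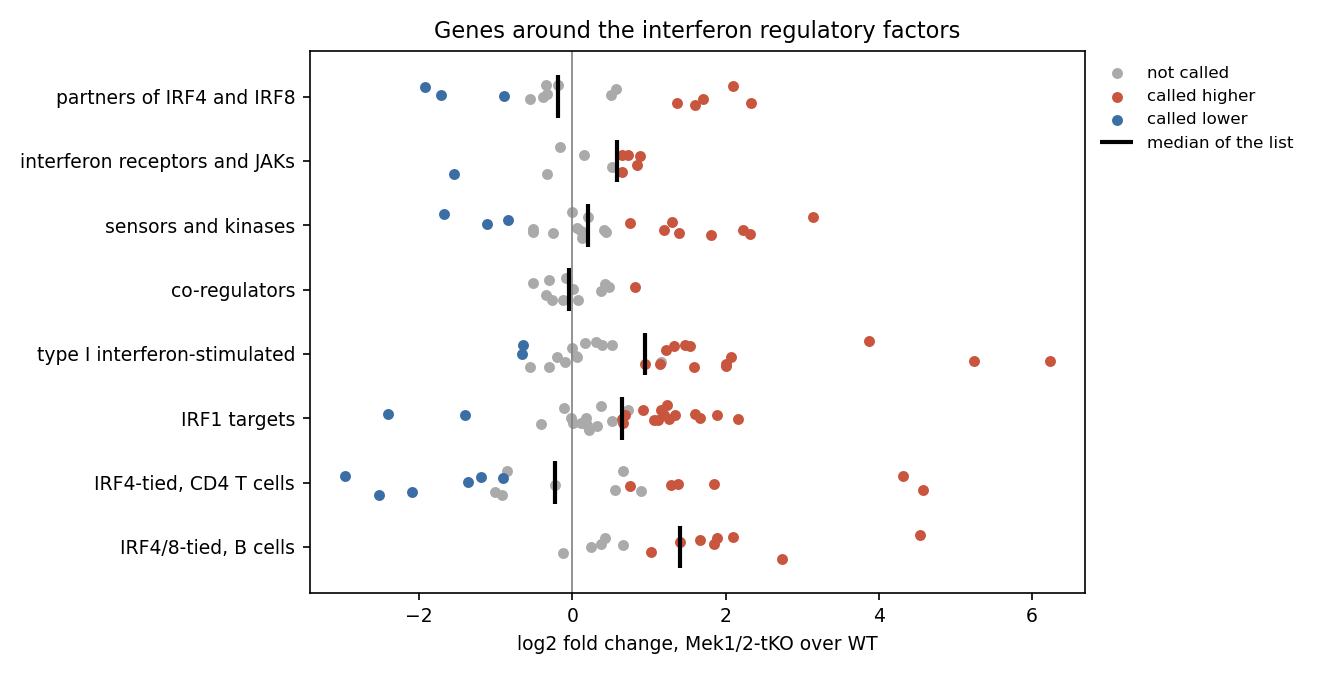
Log2 fold change (Mek1/2-tKO over WT) of each tested gene in 8 lists around the family, with 1 point per gene (red, called higher; blue, called lower; grey, not called) and a black bar at the median of the list. The medians range from -0.23 for genes tied to IRF4 in CD4+ T cells to 1.41 for genes tied to IRF4 and IRF8 in B cells.

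Other lymphocyte markers were read in the same libraries, since several members are expressed at different levels in different lymphocytes. Of 7 γδ T-cell markers listed, 6 were called higher, or 4 with at least 10 counts required in every library, with sums of 21.8 and 22.6 CPM in WT and 289 and 281 CPM in Mek1/2-tKO, Blk, also a B-cell gene, being the most abundant, and with neither Trdc nor Tcrg-C1 at 0. Cd8a and Cd8b1 were higher, with sums of 67.4 and 59.2 CPM in WT and 238 and 214 CPM in Mek1/2-tKO. Of 18 αβ T-cell and CD4 markers, 1 (Thy1, the most abundant) was higher and 11 were lower, Cd4, Cd28 and Lef1 the most, with sums of 4412 and 4476 CPM in WT and 3434 and 3255 CPM in Mek1/2-tKO. Trac had 219 and 230 CPM in WT and 121 and 107 CPM in Mek1/2-tKO, while Trbc2 had 393 and 370 CPM in WT and 397 and 351 CPM in Mek1/2-tKO. The part of these shifts in the levels of the family was not tested.

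**Figure D5:**
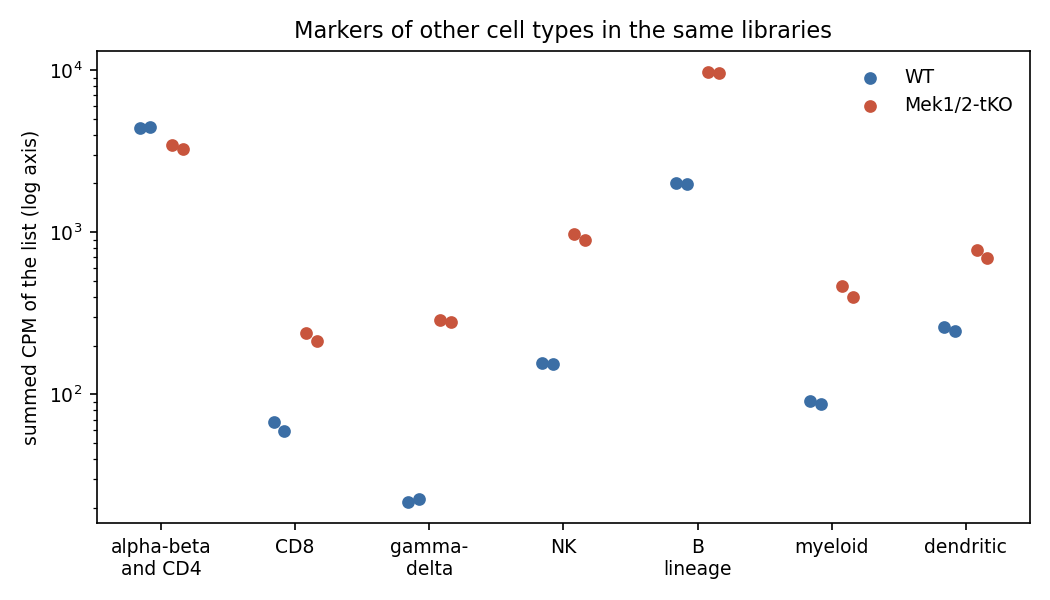
Summed CPM (log axis) of 7 lists of cell type markers, with 1 point per library (blue, WT; red, Mek1/2-tKO). Every list but that of αβ T-cell and CD4 markers is higher in both Mek1/2-tKO libraries, B-lineage markers from 2014 and 1982 CPM to 9707 and 9629 CPM.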

How the data were processed

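The libraries were prepared with a stranded mRNA kit and sequenced as read pairs. Per the submitters' processing notes, reads were trimmed with Trimmomatic 0.36 and assigned to genes with featureCounts of Subread 1.5.1 on GRCm38 (mm10), and DESeq2 1.40.1 in R 4.3.0 was named as well. The authors deposited raw counts per gene for each library. The annotation release, the strand setting and whether the mates of a pair were counted once are not given in the sources used here. Of the genes with 1 to 20 counts, 65.4 to 68.2% in each library had an even count. The floor given for a count of 0 covers counting error only and would be higher if mates were counted separately, whereas the intervals of the log2 fold changes come from the fitted standard errors and take in the spread between libraries.

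Genotypes were compared here by the quasi-likelihood test of edgeR 4.0.16 (R 4.3.3), after filterByExpr and TMM scaling, with a robust fit on genotype alone and Benjamini-Hochberg adjustment over 14330 genes. CPM and RPKM were computed from TMM-scaled library sizes. The common dispersion was 0.00842. Replicates were counted as separate samples, as labelled. The chi-square per gene between them was 3.58 in WT and 8.16 in Mek1/2-tKO, values that counting mates separately would raise. Symbols were matched to 54723 of 54752 identifiers. The floor for a count of 0 was 3 counts per library. The alternatives tried were other tests (DESeq2 1.42.0 and edgeR's likelihood-ratio test), other scalings and filters, other thresholds, a replicate block and leaving out each library. Figures were drawn with matplotlib 3.10.9.

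The members and gene lists were chosen with earlier results of these data known. The text names all members and, of each list, the called genes that changed most (up to 3 per direction, average log2 CPM 1 or more). It also names the most abundant gene of each list over all libraries, defining markers, and the 3 genes nearest to Irf4, Irf7 and Irf8 in pattern (average log2 CPM 3 or more). Acaca, Batf, Stat2, Tbk1, Isg15, Mx1, Tap1, Igtp and Itga2 were given values or names outside this rule after their values were seen. One further gene of the family and some genes of the lists are not reported here by name, and protein sequences were not analysed here.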

Additional observations from a re-analysis of the deposited data

How the results depend on the processing

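Irf1, Irf4, Irf5, Irf7 and Irf9 kept their direction and passed the thresholds in the 7 other fits with all libraries and in the 4 that leave out a library, and Irf3 was called in none of them. Irf2 fell to 0.31 without Mek1/2-tKO replicate 2. Irf8 turned to -0.02 with library size alone, and lay between -0.04 (without Mek1/2-tKO replicate 2) and 0.16 (without Mek1/2-tKO replicate 1) with a library left out. The cause was not tested. With each library left out, 4 to 5 members were higher and 1 was lower, and 2338 to 2791 genes were called higher and 2119 to 2627 lower. With a fold change of at least 2, 2 members (Irf5 and Irf7) were higher and 1 (Irf4) was lower, with 1725 genes higher and 1040 lower in all. With no minimum fold change, 3983 genes were higher and 3903 lower. Where a library is left out, the lone library of its genotype is assumed to vary like the other genotype. Scaling by library size alone moved the median log2 fold change of all genes from 0.02 to -0.07 and turned the balance of calls to 2388 genes higher and 2849 lower (45.6% higher in place of 54%).

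Replicate numbers did not pair the libraries: deviations of libraries with the same number correlated at -0.0242 across genes. With a replicate block, 5 members were higher and 1 lower, with 2652 genes called higher and 2300 lower. Of 635 alternative values for gene lists, 581 stayed near the reported value and 54 moved. The lower calls of Fcer2a and of Itga2 were lost with a replicate block, with the DESeq2 test and with at least 10 counts in every library. That of Fcer2a was also lost with DESeq2 size factors in edgeR, and without WT replicate 1 or Mek1/2-tKO replicate 1. That of Itga2 was also lost with any 1 library left out. With 2 libraries per genotype the smallest p of an exact test is 0.333, and the adjusted p-values use a spread modelled across genes.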
